A study of Mus musculus with 10 samples.

Results

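The serotonin receptor transcripts examined here are 10 genes taken by name from the 32531 gene rows of each library: Htr1a, Htr1b, Htr1d, Htr1f, Htr2a, Htr2c, Htr4, Htr5a, Htr5b and Htr7. Their levels were measured in RNA bound to EGFP-tagged ribosomes of the mouse medial habenula, in 5 libraries from the left side and 5 from the right. All libraries came from adult mice of the bacterial artificial chromosome line Chat-TRAP DW167, in which control sequences of the choline acetyltransferase gene drive EGFP fused to the ribosomal protein Rpl10a. The tag therefore marks the translating RNA of cholinergic neurons, and every library is an immunopurified one, so no unpurified tissue served as a reference. Separate animals are not named in the labels, and p-values therefore measure only the spread between these libraries, which may be technical.

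Serotonin reaches the habenula along fibres of the raphe nuclei and acts mostly through G protein-coupled receptors. The 5-HT1 and 5-HT5 classes couple mainly to Gi/o proteins, which lower cyclic AMP, the 5-HT2 class to Gq, which activates phospholipase C, and 5-HT4 and 5-HT7 to Gs, which raises cyclic AMP. Htr5a and Htr5b encode the paired 5-HT5 receptors; Htr5b is intact in rodents and is a pseudogene in humans. The medial habenula itself holds excitatory neurons that send their axons to the interpeduncular nucleus.

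Libraries held 42488448 to 67942836 reads in genes. All levels below are CPM, the counts of a gene per 1000000 gene reads after scaling by trimmed means (TMM). The markers of habenular cholinergic neurons were present throughout, with Chat at 86.0 to 196 CPM and Slc18a3, the vesicular acetylcholine transporter, at 196 to 587 CPM. Replicates 1 and 5 of both sides stood apart from the other 6 libraries. In those 4 libraries the summed level of 8 habenular markers was 5107 to 5537 CPM, against 2451 to 4403 CPM in the others. The sum of 6 astrocyte markers was 40.5 to 43.7 CPM against 245 to 1227 CPM, that of 6 oligodendrocyte markers 91.9 to 96.1 against 355 to 1565 CPM, and that of 7 thalamic neuron markers 265 to 285 against 683 to 1698 CPM. Counts of replicates 1 and 5 of a side differed by a chi-square of 2.65 per gene on the left and 1.38 on the right, where every other pair of libraries of a side differed by 9.15 or more. That is more than counting noise, so the 2 were kept as separate libraries, but it does not tell separate animals from 2 preparations of the same RNA, and n = 5 a side is to be read with that limit. With replicates 1 and 5 of a side summed into 1 library, edgeR called 0 of 16553 genes between the sides, with 23 at an unadjusted p under 0.05. In bulk RNA, fewer cells of a type and less RNA per cell cannot be told apart.

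Promoter windows of Htr4 and Htr5b were not examined. For the other 8 of the 10 receptors, windows were taken from the RefSeq promoter table of build GRCm38.p6. Among these the Gi-coupled Htr5a and the Gq-coupled Htr2c had the highest mean levels, and the 250 bases before the RefSeq start of each are shown for that reason. The Htr5a window is chr5:27841697-27841946 on the plus strand and the Htr2c window chrX:146962263-146962512 on the plus strand. Both are written from 5′ to 3′ with CG dinucleotides in capitals.
Htr5a: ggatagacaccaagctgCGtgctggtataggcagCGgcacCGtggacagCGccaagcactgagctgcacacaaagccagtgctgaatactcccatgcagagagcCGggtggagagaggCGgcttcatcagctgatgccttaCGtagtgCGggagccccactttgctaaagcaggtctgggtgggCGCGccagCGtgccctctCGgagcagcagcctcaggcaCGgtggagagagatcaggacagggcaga
Htr2c: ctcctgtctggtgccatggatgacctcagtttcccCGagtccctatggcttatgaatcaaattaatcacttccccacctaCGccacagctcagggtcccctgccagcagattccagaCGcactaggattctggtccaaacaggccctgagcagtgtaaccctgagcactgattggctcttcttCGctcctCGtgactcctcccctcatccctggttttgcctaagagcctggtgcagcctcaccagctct
The Htr5a window held 13 CG dinucleotides at 62.0% G and C, and the Htr2c window held 5 at 55.6%, where the median of 32536 such windows is 6.0 CG dinucleotides and 52.4%. The Htr7 window was the richest of the 9 receptor windows examined, with 41 CG dinucleotides at 82.0%. The letters TATAAA, searched on both strands, were in 0 of the 9 receptor windows and in 12.3% of all windows. The letters TAATTA, a homeodomain core that reads the same on both strands, were in 1 of the 9 windows, that of Htr2a, and in 4.84% of all windows.

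The 2 genes of the 5-HT5 class carried most of the family. Per kilobase of exon, the scale on which levels of different genes can be compared, Htr5b stood at 136 ± 27.3 CPM per kilobase (SD over 10 libraries) and Htr5a at 21.1 ± 3.16. Next came Htr4 at 3.37 ± 1.04, Htr2c at 3.32 ± 2.39, Htr7 at 2.35 ± 0.961 and Htr2a at 1.03 ± 0.145 CPM per kilobase. The remaining members of the 5-HT1 class were lowest, with Htr1d at 0.254 ± 0.278, Htr1a at 0.192 ± 0.211, Htr1b at 0.171 ± 0.158 and Htr1f at 0.133 ± 0.145 CPM per kilobase. On this scale Htr5b made up 74.2% to 84.1% of the family's reads per kilobase in single libraries, with a median of 81.8%. Htr5a made up 11.8% to 13.4% and Htr2c 0.467% to 5.34%. The value for Htr2c depends on the length used. With the longest transcript as gene length its share was 0.886% to 9.69%, and it came above Htr4 in the order.

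**Figure D1:**
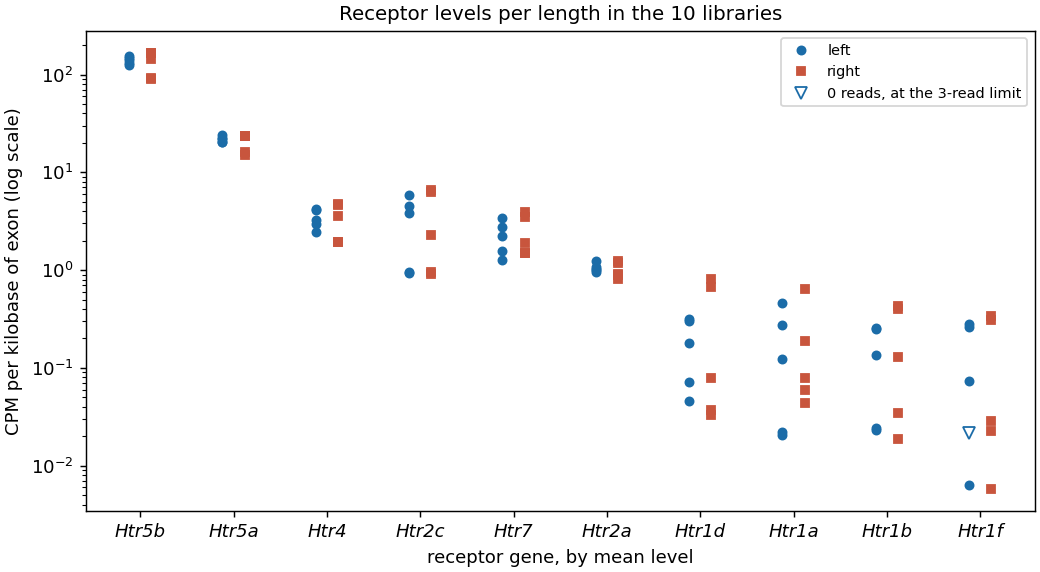
Level of each receptor in CPM per kilobase of exon (log axis) in the 5 left (circles) and 5 right (squares) libraries; the open triangle is Htr1f in left replicate 5, with 0 reads, drawn at the limit of 3 reads. Htr5b lies between 89.0 and 166 CPM per kilobase, above every value of Htr5a, and the 5-HT1 members spread most.

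Neighbours in that order were compared within libraries by an exact two-sided sign-flip permutation test over the 10 libraries, on log2 level per kilobase, with 9 pairs tested. The order used the mean of the log2 levels. Htr5b was above Htr5a in 10 of 10 libraries, 6.37-fold on average, and Htr5a was above Htr4 in 10 of 10, 6.49-fold. Htr7 was above Htr2a in 10 of 10, 2.12-fold, and Htr2a above Htr1d in 10 of 10, 7.13-fold. Each of these 4 pairs gave an exact p of 0.00195, the smallest that 10 libraries allow, and an adjusted p of 0.00439 in that exact permutation test. The pairs Htr4 and Htr2c (adjusted p = 0.532 by the exact test), Htr2c and Htr7 (0.532), Htr1d and Htr1a (0.308) and Htr1a and Htr1b (0.643) did not differ beyond their spread. Htr1b was 1.92-fold above Htr1f, in 7 of 10 libraries (adjusted p = 0.0492 by the exact test). That call was lost without left replicate 1, 2 or 5 or right replicate 2 or 5 (adjusted p = 0.0984 for each by the exact permutation test) and without right replicate 3 or 4 (0.0773). It was also lost with replicates 1 and 5 of a side averaged and counted once (0.0563).

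The 5-HT5 receptors were abundant in every library. Htr5b (chromosome 1, 121509842 to 121528465, minus strand, GRCm38) stood at 285, 273, 241, 252 and 301 CPM in left replicates 1 to 5 and at 319.6, 282, 177, 172 and 321 CPM in right replicates 1 to 5. Right replicates 3 and 4 were the lowest and right replicates 1 and 5 the highest, so the left values lie inside the range of the right. Htr5a (chromosome 5, 27842149 to 27855088, plus strand) stood at 129, 109.7, 110.2, 117 and 122 CPM in the left libraries, in the order of their numbers, and the right libraries had 127, 127, 86.7, 81.3 and 125 CPM. Its low values are again right replicates 3 and 4, and the sides overlap. The reads of Htr5b were 2.04 to 2.56 times those of Htr5a, so the proportion of the pair varied little over libraries whose glial markers varied widely. Together they held 72.8% to 91.5% of the reads of the 10 receptors.

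The Gs-coupled receptors ran in opposite directions. Htr4, whose product raises cyclic AMP (chromosome 18, 62324204 to 62496577, plus strand), stood at 20.8, 15.9, 14.6, 11.9 and 19.98 CPM in left replicates 1 to 5. On the right it stood at 23.2, 17.5, 9.61, 9.42 and 22.6 CPM. Its 4 highest libraries were replicates 1 and 5 of both sides, where glial markers were lowest. Htr7, the other Gs-coupled member (chromosome 19, 35958734 to 36057507, minus strand), stood at 5.36, 7.60, 9.30, 11.5 and 4.35 CPM in the left libraries, and the right libraries had 5.07, 6.44, 13.3, 11.8 and 5.11 CPM. For Htr7 those same 4 libraries were the lowest. The reads of Htr4 ranged from 0.724 times those of Htr7 in right replicate 3 to 4.597 times in left replicate 5.

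Of the Gq-coupled receptors, Htr2c varied widely and Htr2a little. Htr2c, a receptor of many forebrain neurons and of the choroid plexus (chromosome X, 146962513 to 147197277, plus strand), stood at 8.73, 36.1, 42.6, 54.6 and 9.00 CPM in left replicates 1 to 5. On the right it stood at 8.58, 21.2, 61.2, 59.2 and 8.97 CPM. The 4 libraries of replicates 1 and 5 lay within 8.58 to 9.00 CPM, and the lowest of the others was at 21.2 CPM. Htr2a, the cortical target of many psychedelic drugs (chromosome 14, 74640840 to 74709494, plus strand), stood at 5.37, 5.68, 6.10, 6.99 and 5.71 CPM in the left libraries, and the right libraries had 4.596, 5.02, 6.86, 6.56 and 5.10 CPM. Its highest library was 1.52 times its lowest, against 7.14 times for Htr2c, and replicates 3 and 4 of both sides were its highest. The reads of Htr2c were 1.58 to 9.02 times those of Htr2a.

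The 5-HT1 receptors were close to the detection limit in replicates 1 and 5. Htr1a, the inhibitory autoreceptor of raphe neurons (chromosome 13, 105443639 to 105448122, plus strand), had 6, 35, 123, 83 and 5 reads in left replicates 1 to 5 and 18, 24, 187, 34 and 13 reads on the right. Htr1b, a terminal autoreceptor (chromosome 9, 81628291 to 81633828, minus strand), had 7, 41, 72, 80 and 6 reads in the left libraries, and the right ones had 6, 41, 123, 82 and 11. Replicates 1 and 5 held the lowest values of each. Htr1b shares 852 exonic bases with D430036J16Rik of the other strand in the annotation, and since no source used here states whether counting used strand, its reads are uncertain to that extent. Htr1d, a close relative of Htr1b (chromosome 4, 136423524 to 136444398, plus strand), ranged from 7 reads in right replicate 5 to 139 reads in right replicate 3. Htr1f, a target of antimigraine drugs (chromosome 16, 64924729 to 65105854, minus strand), had 0 reads in left replicate 5, which allows up to 3 reads or 0.0552 CPM, and 1 read each in left replicate 1 and right replicate 5. Its highest level was 0.870 CPM, in right replicate 4, at least 15.7-fold higher than that limit; such limits cover counting error only. In CPM the highest library was 31.3 times the lowest for Htr1a, 23.1 times for Htr1b and 24.8 times for Htr1d.

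**Figure D2:**
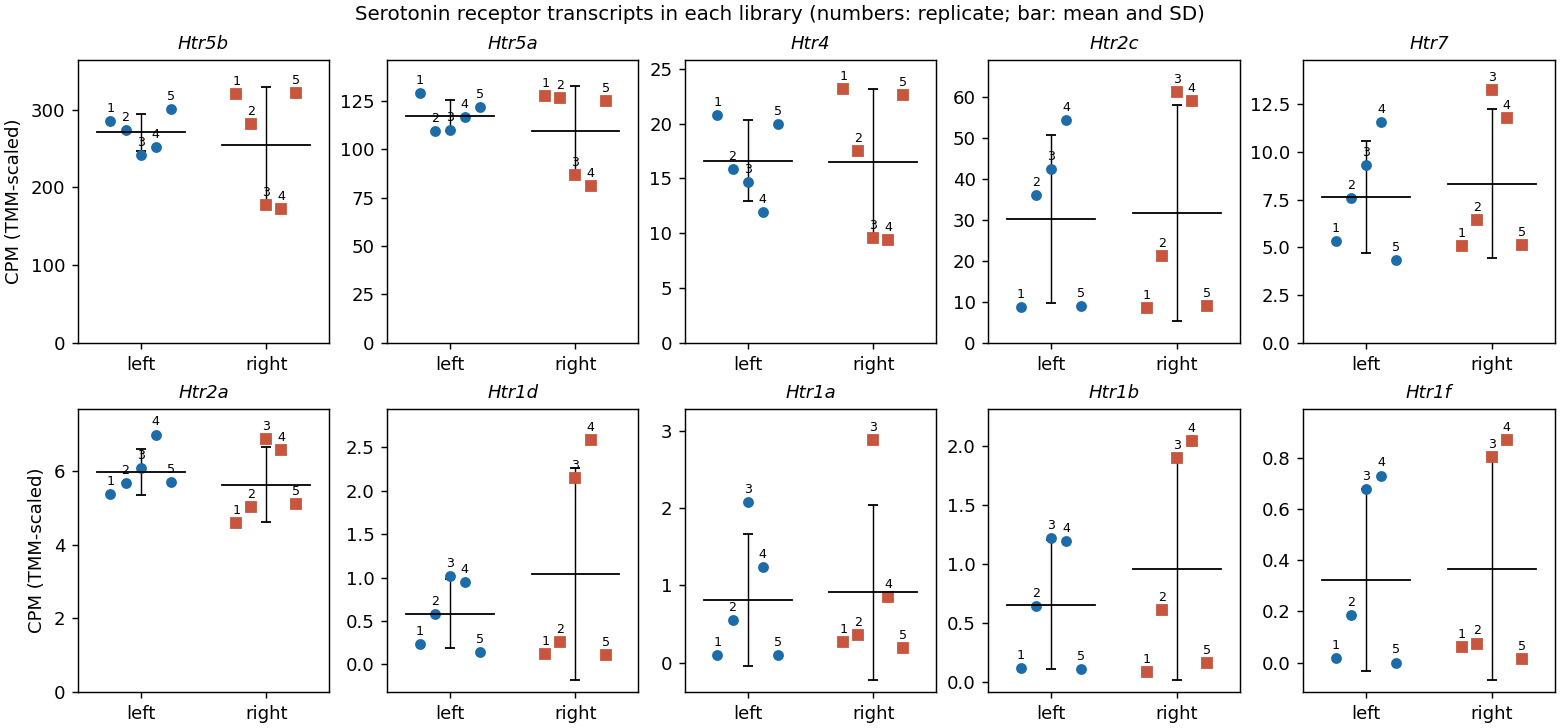
Level of each receptor in CPM (linear axes, 1 panel per gene) in left (circles) and right (squares) libraries, numbered by replicate; the horizontal bar is the mean and the whiskers 1 SD of 5 libraries. Replicates 1 and 5 are the highest libraries for Htr5b and Htr4 and the lowest for Htr2c, Htr7 and the 5-HT1 genes, on both sides.

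Read over the family, 2 of the 10 receptors (Htr5b and Htr4) had their 4 highest libraries in replicates 1 and 5, a pattern that 23.6% of 16250 tested genes had. In 6 of the 10 (Htr1a, Htr1b, Htr1d, Htr1f, Htr2c and Htr7) replicates 1 and 5 were the 4 lowest libraries, a pattern that 24.8% of the tested genes had. This division of the libraries was seen in the data and was not tested. Htr1b, Htr1d and Htr1f had too few reads in replicates 1 and 5 and passed the count filter through the other libraries, so their place in this count is weak. The gap was also a few reads in places. Right replicate 2 had 5 reads of Htr1f, 17 of Htr1d and 24 of Htr1a. Right replicate 1 had 4 reads of Htr1f and 18 of Htr1a, and left replicate 1 had 14 of Htr1d. Htr5a and Htr2a had neither pattern: right replicate 2 was among the 4 highest libraries for Htr5a, and right replicate 2 lay below 3 of the 4 libraries of replicates 1 and 5 for Htr2a.

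Markers of other cells moved with these levels, and their part in them was not tested. Scaled to the summed level of the 7 thalamic neuron markers (among them Rora at 138 to 824 CPM and Prkcd at 13.2 to 304 CPM), Htr2c ranged from 3.06% to 3.83% of that sum. That is a 1.25-fold range in place of 7.14-fold, the smallest with any of the 13 marker lists. Against the lateral habenular list the range of Htr2c was 1.51-fold. Scaled to the 8 habenular markers, Htr4 ranged from 0.329% to 0.463% of their sum, a 1.41-fold range in place of 2.46-fold, and Htr5b from 5.59% to 7.91%, a 1.42-fold range in place of 1.86-fold. For both of these the habenular list gave the smallest range, though for Htr5b the choroid plexus list came close, at 1.48-fold. Htr5a had a 1.62-fold range after scaling to the habenular markers and 1.59-fold before it. Its smallest range, 1.37-fold, was against the choroid plexus list. Most of that list's sum came from Otx2, named after its values were seen (50.4 to 99.3 CPM), while Ttr and Folr1 reached at most 3.04 and 0.149 CPM. No list gave Htr2a a range below its unscaled 1.52-fold. Htr7 ranged least against the 4 hippocampal markers, 1.57-fold, Htr1a against the 3 markers of GABAergic neurons, 2.68-fold, and Htr1b and Htr1d against the oligodendrocyte markers, 2.16-fold and 3.72-fold. Of the hippocampal sum of 58.7 to 206 CPM, Prox1 alone gave 51.1 to 194 CPM. Neurod6, named after its values were seen, was the only hippocampal marker not lower in replicates 1 and 5 (7.11 to 7.54 CPM, against 4.09 to 7.31 CPM in the others). These scalings were chosen after the levels had been seen.

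**Figure D3:**
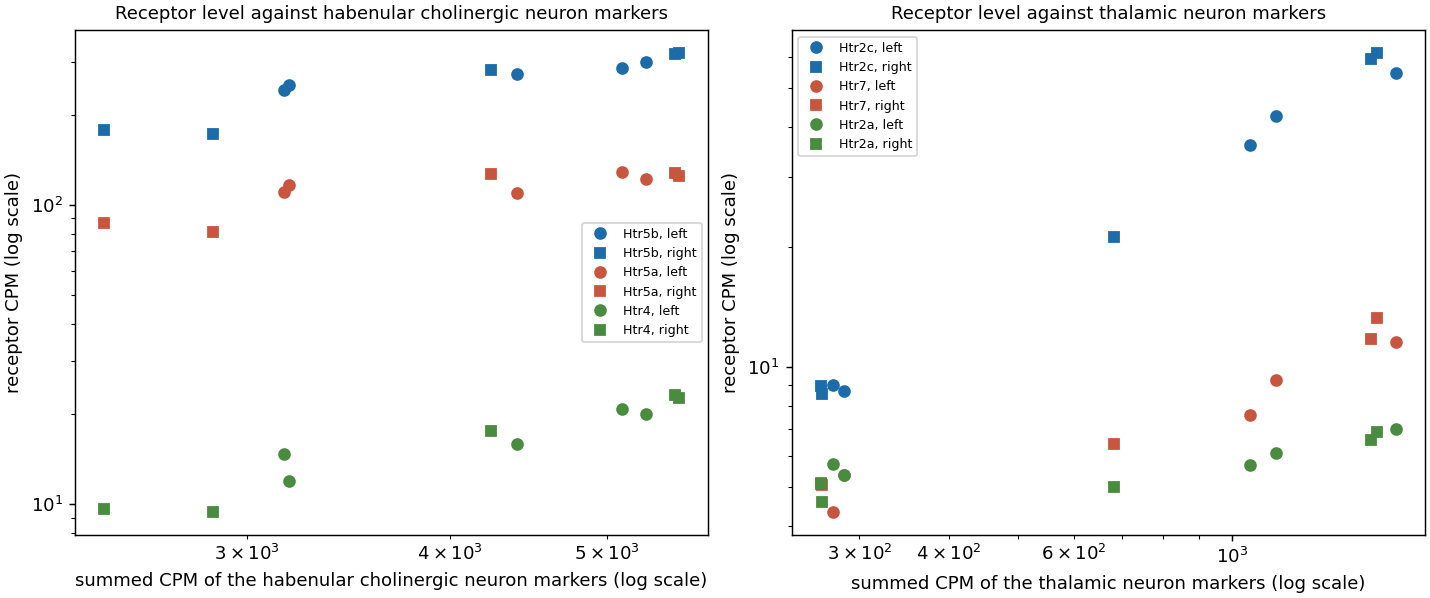
Level of Htr5b, Htr5a and Htr4 against the summed CPM of the 8 habenular cholinergic markers (left panel) and of Htr2c, Htr7 and Htr2a against that of the 7 thalamic neuron markers (right panel), both axes logarithmic, 1 point per library. Htr2c runs from 8.58 to 61.2 CPM as the thalamic markers run from 265 to 1698 CPM, while Htr2a stays within 4.596 to 6.99 CPM.

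The other marker lists are given by side. Lateral habenular markers (2 of 2 tested) summed to 36.3 to 213 CPM (left) and 44.3 to 242 CPM (right), with Pcdh10 at 13.4 to 151 and Gap43 at 22.9 to 108 CPM. GABAergic markers (3 of 3) summed to 23.7 to 356 and 38.0 to 500.0 CPM, with Gad1 at 6.60 to 61.3 and Gad2 at 16.0 to 424 CPM. The choroid plexus is a tissue rich in Htr2c, and its list of 7 markers summed to 88.7 to 104 CPM (left) and 78.7 to 101.4 CPM (right), of which Otx2, named after its values were seen, alone gave 50.4 to 99.3 CPM. Ttr stood at 0.253 to 3.04 CPM and Folr1 at 0.0339 to 0.149 CPM, and the part of this tissue in the Htr2c level was not tested. Hippocampal markers (4 of 4) summed to 58.7 to 206 and 61.5 to 175 CPM, with Prox1 at 51.1 to 194 and C1ql2 at 0.0822 to 4.28 CPM. Oligodendrocyte precursor (3 of 3), microglia (5 of 5) and endothelial and pericyte (6 of 6) markers summed to 2.12 to 76.8, 1.495 to 22.2 and 4.64 to 21.5 CPM (left) and to 2.95 to 69.3, 1.76 to 22.1 and 5.75 to 27.9 CPM (right). Their leading markers were Pdgfra (1.14 to 23.2 CPM), Cspg4 (0.230 to 13.7), Cx3cr1 (0.115 to 3.15), Csf1r (0.221 to 12.9), Pecam1 (3.59 to 6.14) and Cldn5 (0 to 70 reads). Slc1a2 and Aqp4 of astrocytes stood at 33.5 to 1074 and 2.91 to 69.9 CPM, and Mbp of oligodendrocytes at 17.9 to 589 CPM. Of 5 pineal markers 2 were tested, and Aanat and Asmt had at most 5 and 1 reads.

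The comparison of the sides asks whether these receptors differ between the left and the right medial habenula. None of the 10 receptors passed the threshold in the edgeR quasi-likelihood test over all genes (0 of 10 with an adjusted p under 0.05, against 0% of 16250 genes tested), and adjusted p = 1 for each. Without adjustment 90 genes had a p under 0.05 in edgeR and 141 in DESeq2, which also called 0, and no receptor was among either. In limma-voom with sample weights, again with 0 called, 2409 genes did, Htr1d and Htr2c among them. In edgeR 297 genes did with the replicate number as a block and 480 with a score of the glial markers as a covariate, again with 0 called. For 16250 genes, 90 is fewer than a calibrated test gives on average, as are 141, 297 and 480, while 2409 is more. Genes measured in the same 10 libraries are not independent, so these counts alone do not show how well each fit was calibrated. That 0 genes were called does not show that the sides are equal. For every receptor the values of the sides overlapped, where 0.203% of tested genes had sides that did not.

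The interval of the difference was narrowest for Htr5a, Htr2a and Htr5b and widest for the 5-HT1 class. Htr5b had a mean of 270.4 ± 24.2 CPM in the left libraries and 254 ± 74.4 CPM in the right ones (SD, n = 5 each), a log2 fold change, left minus right, of 0.09 with a 95% interval of -0.34 to 0.52. Htr5a stood at 117 ± 8.16 and 109 ± 23.3 CPM (0.10, -0.23 to 0.43) and Htr2a at 5.97 ± 0.627 and 5.63 ± 1.01 CPM (0.09, -0.25 to 0.43). Htr4 stood at 16.6 ± 3.70 and 16.5 ± 6.72 CPM (0.01, -0.63 to 0.66), and Htr7 at 7.63 ± 2.92 and 8.33 ± 3.89 CPM (-0.13, -0.92 to 0.67). For these 5 a 2-fold difference between the sides lies outside the interval. Htr2c was at 0.029 with the replicate number as a block and at 0.020 with a score of the glial markers as a covariate, fits for which no interval was computed. In the fit used here, with no term but side, its interval at 30.2 ± 20.6 and 31.8 ± 26.4 CPM ran from -1.65 to 1.504 around -0.07. In that fit differences of more than 2-fold in either direction could not have been told from none. The 4 receptors of the 5-HT1 class had intervals wider still, from -2.36 to 2.04 for Htr1a, -2.66 to 1.58 for Htr1b, -2.97 to 1.33 for Htr1d and -2.99 to 2.69 for Htr1f. With the replicate number as a block these 4 were at -0.21, -0.37, -0.16 and -0.13, in the same order. With the glial score as a covariate they were at -0.25, -0.43, -0.32 and -0.22, again without intervals. Of the 10 receptors 4 had a log2 fold change above 0 and 6 below, with a median of -0.10, where 7520 of all tested genes lay above and 8730 below with a median of -0.01.

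**Figure D4:**
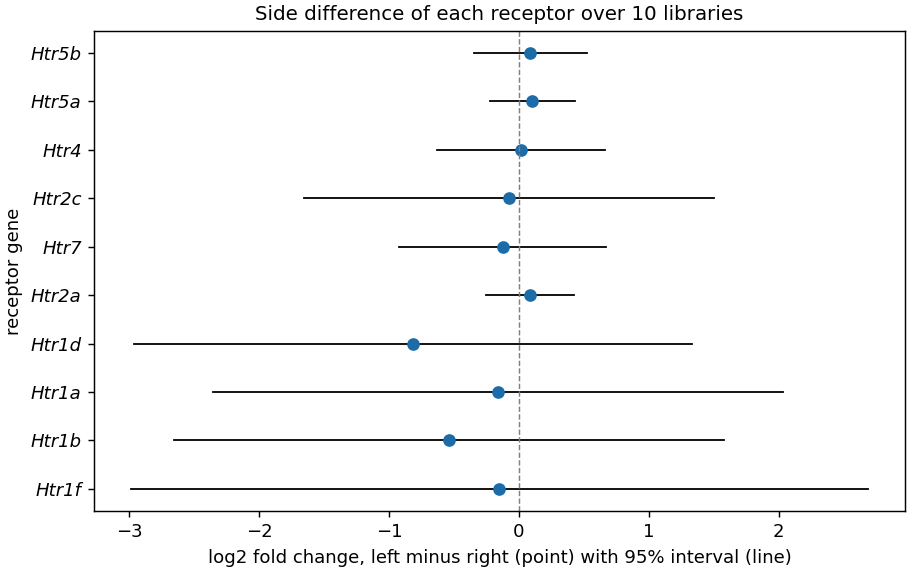
Fitted log2 fold change of each receptor, left minus right (points), with its 95% interval (lines), from the edgeR fit over 10 libraries. All 10 intervals include 0, and those of Htr5b, Htr5a, Htr4, Htr7 and Htr2a lie within -1 and 1.

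The sides were also compared within subsets of the libraries chosen by replicate number. With replicates 2 to 4 alone edgeR called 0 of 10 receptors (0% of 16809 genes), and Htr5b had a log2 fold change of 0.29 and Htr2c one of -0.06. With replicates 1 and 5 alone 12.8% of 15569 genes were called, and 0 of the 7 receptors that could be tested. Htr1b, Htr1d and Htr1f had too few reads there. In that fit Htr1a was at -1.24 (edgeR adjusted p = 0.0837), Htr4 at -0.16 (0.0988), Htr5b at -0.12 (0.110), Htr2a at 0.20 (0.186) and Htr5a at -0.0062 (0.948). That fit rests on 2 libraries a side, those that differed least from each other (chi-square of 2.65 and 1.38 per gene).

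The other genes of serotonin signalling, 49 in a list of synthesis, transport, breakdown, coupling and editing, gave 44 tested genes and 0 called (0% of all genes tested). Of the 44 genes 20 had a log2 fold change above 0 and 24 below, with a median of -0.02. The remaining receptors were scarce. Htr3a, a subunit of the serotonin-gated channel, stood at 0.766 ± 0.298 and 0.469 ± 0.315 CPM, and Htr2b, Htr6 and Htr3b had at most 42, 17 and 5 reads in a library; these 4 are named after their values were seen. The transcripts that define serotonin neurons were at the limit of detection: Tph2, the neuronal tryptophan hydroxylase, had 2 to 10 reads and the transcription factor Fev 0 to 9. Slc6a4, the serotonin transporter, had 0 reads in every library, which allows up to 3 reads, or 0.0441 to 0.0746 CPM depending on the library. Tph1, the tryptophan hydroxylase of the pineal gland, ranged from 0 to 4.13 CPM, with its highest level in right replicate 4.

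Genes that handle monoamines were present. Slc18a2, the vesicular monoamine transporter, stood at 57.4 ± 3.15 CPM (left) and 54.5 ± 8.24 CPM (right). Maoa, which oxidises serotonin, stood at 113 ± 36.9 and 114 ± 21.0 CPM and was highest in replicates 1 and 5 (131 to 154 CPM, against 79.6 to 121 CPM). Maob, the other monoamine oxidase, ran the other way, with 14.6 to 17.2 CPM in replicates 1 and 5 and 33.1 to 121 CPM in the other libraries. Aldh2, which acts after the oxidases, ranged from 9.63 to 28.3 CPM. Of the enzymes of the tetrahydrobiopterin cofactor, Pts ranged from 15.1 to 27.2, Qdpr from 31.9 to 65.5 and Pcbd1 from 18.8 to 33.8 CPM.

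The effectors reached by these receptors were abundant. Gnao1, the Go subunit to which the 5-HT1 and 5-HT5 classes couple, ranged from 2450.4 to 3108 CPM, and Gnai1, Gnai2 and Gnai3 from 54.5 to 174, 74.6 to 101.4 and 24.9 to 42.1 CPM. Gnaz ranged from 50.3 to 111 CPM. The Gs-type subunits Gnas and Gnal ranged from 2048 to 2672 and 758 to 1009 CPM, and the Gq-type subunits Gnaq and Gna11 from 101.2 to 188 and 106 to 159 CPM. Below Gq, the phospholipases Plcb1 and Plcb4 followed the direction of Htr2c, with 5.93 to 8.62 and 150.2 to 169 CPM in replicates 1 and 5 and 24.5 to 92.6 and 322 to 849 CPM in the others. So did Kcnj3, Kcnj6 and Kcnj9, subunits of the potassium channels opened by Gi/o-coupled receptors, at 11.5 to 75.7, 21.5 to 54.5 and 30.9 to 53.7 CPM over all libraries. The adenylyl cyclases Adcy1, Adcy5 and Adcy9 ranged from 25.1 to 251, 3.32 to 44.3 and 30.0 to 62.6 CPM. Adcy2, Adcy3 and Adcy8 ranged from 11.1 to 24.6, 7.0 to 14.9 and 71.8 to 92.3 CPM. Of the 21 effectors 14 were lowest in replicates 1 and 5, and 0 were highest there, where 24.8% and 23.6% of all tested genes were. Exons of Gnao1, Gnas, Gnal, Plcb1, Kcnj3, Kcnj6, Kcnj9, Adcy2 and Adcy3, and outside the effectors those of Htr2b, Qdpr, Slc18a2, Aldh2, Arrb2 and Adar, overlap other annotated genes, by 64 (Arrb2) to 1621 bases (Kcnj3), which leaves these counts uncertain.

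Among receptor partners, the scaffold Dlg4 stood at 310.3 ± 33.9 CPM (left) and 326 ± 29.0 CPM (right). Mpdz, a scaffold that binds the 5-HT2C receptor, ranged from 29.7 to 102 CPM and was lowest in replicates 1 and 5, as Htr2c was. The arrestins Arrb1 and Arrb2, which end signalling, ranged from 116 to 214 and 26.5 to 53.1 CPM, and the kinases Grk2 and Grk5 from 69.7 to 90.2 and 25.6 to 38.9 CPM. Adarb1 and Adar, adenosine deaminases that edit RNA, the Htr2c message included, ranged from 287 to 426 and 116 to 221 CPM. Counts per gene do not show editing. With replicates 1 and 5 alone edgeR called 10 of 42 tested genes of this list, where 12.8% of all genes were called. S100a10, a protein that binds 5-HT1B receptors, was one of these and is named after its values were seen. It stood at 2.10 CPM in both left libraries and at 4.42 and 4.22 CPM in right replicates 1 and 5. Its log2 fold change in that fit was -1.03 (edgeR adjusted p = 0.00469). Only 2 libraries a side enter that fit, those that differed least from each other. In replicates 2 and 4 the left was higher, at 0.859 and 0.880 CPM against 0.386 and 0.447 CPM. In replicate 3 the left was lower, at 0.813 against 1.40 CPM. Over all 10 libraries S100a10 was at -0.69, with an interval of -2.25 to 0.87, and was not called.

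The genes whose profile over the 10 libraries was closest to each 5-HT5 receptor were found among the 8959 genes whose mean reached 10 CPM. The measure was the mean absolute difference of centred log2 CPM. All profiles come from the same 10 libraries, which differ in depth and in their marker sums. Closest to Htr5b were Hspb6 (0.05), 2610035F20Rik (0.06) and Cox18 (0.06). Closest to Htr5a were Tbccd1 (0.04), Gtf2h1 (0.04) and Tex15 (0.05). The distance between Htr5a and Htr5b was 0.10, rank 121 for Htr5b and rank 230 for Htr5a, while Htr4 was at rank 895 and Htr2c at rank 8720 from Htr5b.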

How the data were processed

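RNA from tagged ribosomes was sequenced in 10 libraries, 5 per side. The deposited values are raw read counts per gene, 1 file per library, made with STAR 2.0.0e and HTSeq on mm10 per the submitters' processing notes; no source used here states the annotation, strandedness or filters used. Of 32537 rows per file 6 that name no gene were left out; reads outside genes were 13.6% to 18.9% and ambiguous reads 2.25% to 2.81% of uniquely aligned reads.

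Sides were compared with edgeR 4.0.16 (R 4.3.3) by its quasi-likelihood test, with TMM scaling, a filterByExpr minimum count of 10 and no term but side. Its p-values are two-sided, and were adjusted by Benjamini-Hochberg over all genes, with a threshold of 0.05. Intervals are 95%, with the standard error from the F statistic. log2 CPM had a prior count of 2. Levels per kilobase used the union of exons of GENCODE M21 (GRCm38), matched by symbol, and the order of levels 0.5 added reads. The fit was tested on simulated data. DESeq2 1.42.0 and limma 3.58.1 (voom with sample weights) served as alternatives, together with other scalings, filters and subsets of libraries.

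The members, the marker and pathway lists and the alternatives were chosen with earlier results of these data known. Genes named are the 10 members, the pathway genes whose mean reached 10 CPM (and Tph1, Tph2, Slc6a4 and Fev), 2 leading markers per list (1 of them is not reported here), and the 3 genes closest to each of the 2 members highest per kilobase; other genes are marked in the text as named after their values were seen. Grk2 is listed in the files under an older symbol. Figures were drawn with matplotlib 3.10.9.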

Additional observations from a re-analysis of the deposited data

Results flagged for a closer look

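Among the right libraries Htr1a stood at 2.88 CPM in replicate 3, far above the other 4, which lay at 0.194 to 0.845 CPM. Such a gap was looked for in 20 groups (10 receptors on 2 sides), and chance gives about 1 in 20, so 1 is what chance gives. In the same library Htr1b and Htr1d were also high, at 1.90 and 2.14 CPM, and GABAergic markers reached their highest sum, 500.0 CPM; their part in the value was not tested.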

How the results depend on the processing

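No receptor was called under any alternative run, and 9 of the 10 had a setting in which the log2 fold change was of the other sign, for Htr1b and Htr1d in limma-voom alone. In limma-voom with sample weights the values were 0.96 for Htr1a, 1.56 for Htr1b, 1.76 for Htr1d, 1.57 for Htr1f, 1.29 for Htr2c, 0.43 for Htr7, -0.38 for Htr4, -0.088 for Htr5a and -0.17 for Htr5b. With replicates 1 and 5 alone they were 0.018 for Htr2c, -0.16 for Htr4, -0.0062 for Htr5a and -0.12 for Htr5b. Htr2c was at 0.020 with the glial score as a covariate. The cause was not tested. Leaving out 1 library gave -0.85 to 0.99 for Htr1a, -0.70 to 0.46 for Htr1f, -0.40 to 0.32 for Htr2c, -0.13 to 0.17 for Htr4, -0.025 to 0.19 for Htr5b and -0.32 to 0.12 for Htr7, with no change of sign for Htr1b, Htr1d, Htr2a and Htr5a. With replicates 1 and 5 alone 1992 of all genes and 10 of the pathway list were called, against 0 with all libraries.

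With the replicate number as a block edgeR called 0 of 16250 genes and 0 receptors, with 297 genes at an unadjusted p under 0.05, and Htr2c was at 0.029. Same-numbered libraries correlated at 0.86, 0.10, 0.81, 0.71 and 0.87 across genes for numbers 1 to 5, and the second value lies below the 0.1 asked for, so the number was not taken to pair them; lane numbers in the labels match between sides for replicates 2 to 5 and differ for replicate 1. Right replicates 1 and 3 correlated better with left replicates 5 and 4 (0.863 and 0.859).

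In the order of levels 5 of 9 neighbour pairs passed, 4 or 5 when 1 library was left out. With replicates 2 to 4 alone and with replicates 1 and 5 alone 0 passed, where the smallest exact permutation p possible was 0.0312 and 0.125, too large after adjustment. Levels of receptors at a few reads per library are limited by depth.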
